A study of Populus trichocarpa with 45 samples.

Results

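Branches 13.4 and 14.1 of a wild Populus trichocarpa (black cottonwood) near Mt. Hood, Oregon, were compared by the leaf mRNA of 6 libraries, 3 from each branch, out of 45 libraries from 15 branches in the series. The libraries were taken by their titles, 13.4 r1 to r3 and 14.1 r1 to r3. Trees 13 and 14 are main stems that resprouted from the stump of 1 older individual, so both branches belong to the same plant, and tree 4 is a separate tree of the same stand. The study set 13.4 and 14.1 aside from its age analysis because their ages could not be determined. It describes the branches excluded for this as epicormic in one place and as too damaged to be aged in another. No treatment is listed for any sample, and each branch is represented by leaves of a single collection. The study calls the 3 libraries of a branch biological replicates in one place and technical replicates in another, so the p-values below may measure only the spread between libraries. No second pair of branches repeats this pair, and whatever differs between the branches, including age and position on the stem, cannot be told apart.

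Each branch of a tree grows from its own meristem, the group of dividing cells at the shoot tip, and leaves on different branches of 1 plant share a genome apart from mutations that arose in those meristems. Steady-state mRNA in a leaf is known to depend on its age, light, water status, time of day and contact with pathogens or herbivores, and sets of genes that answer the same signal rise and fall together. A comparison of 2 branches on separate stems therefore shows how far the leaf transcriptomes of those 2 branches lay apart. It does not show the most that branches of the plant can differ.

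The gene identifiers of the Stettler annotation matched 0 of 34621 genes in the RefSeq table used here, so no gene below has a name, a function or a printed sequence, and leaf or other cell type markers could not be checked. Genes are described by chromosome, span (the distance from the first to the last annotated base) and level. Levels are TPM, a relative transcript abundance corrected for transcript length, after scaling by a median-of-ratios factor for each library.

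Depth, read from the smallest step between FPKM values, came to about 20800000, 21500000 and 22000000 fragments in the libraries of 13.4 and to 23700000, 22300000 and 11900000 in those of 14.1. Library 14.1 r3 was the shallowest of the 45, and the next was at 16100000. A list of 175 genes that vary together was built from the 39 libraries outside the pair, and it took 50.9% of all TPM in 14.1 r3, against 3.48% and 2.83% in 14.1 r1 and r2 and 1.66% to 3.76% in 13.4. Library 14.1 r3 also had 26987 genes above 0, where the other 5 libraries of the pair had 28292 to 28559. Because that library stands apart, each result that rests on it is given with and without it.

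Few genes differed strongly between the branches. Of 23512 tested genes, 22 (0.0936%) passed a limma adjusted p of at most 0.01 with a log2 change of at least 1, of which 10 were higher in 14.1 (0.0425%) and 12 were lower (0.051%). The largest rise was 1.89 on the log2 scale and the largest fall 1.96. In all 22 genes the 3 libraries of 13.4 lay on one side of the 3 of 14.1, as they did in 21.6% of all tested genes. Without 14.1 r3, 23 of 23511 genes passed (0.0978%), and 20 of them were among the 22. With the 6 libraries fitted alone, 10 of 22235 passed (0.045%), all of them among the 22. The plot of every library of the called genes shows how close together the 3 libraries of a branch lay in most of them.

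**Figure D1:**
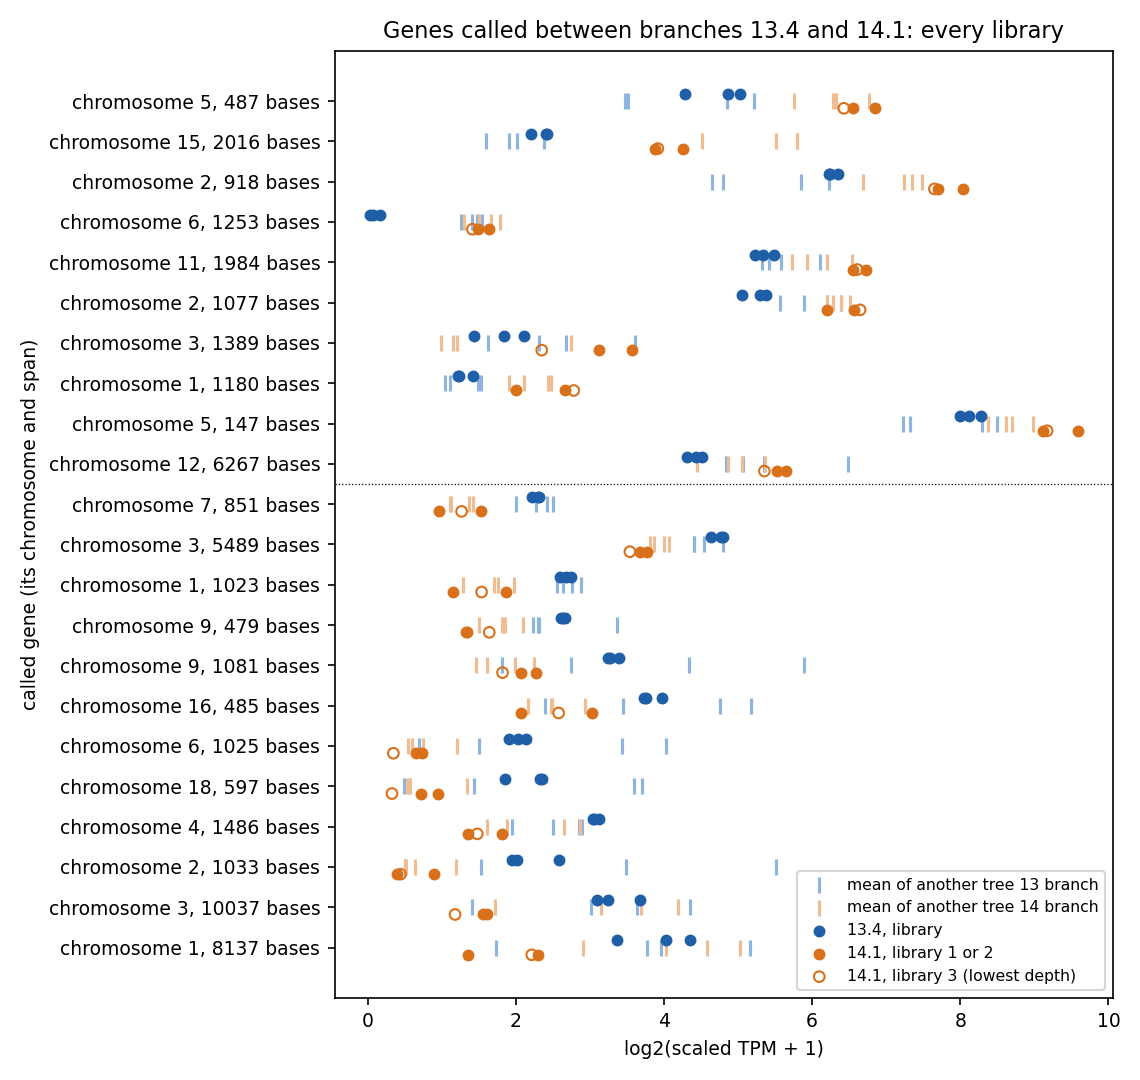
Log2(scaled TPM + 1) of the 22 called genes in each library of branches 13.4 (blue) and 14.1 (orange, the shallow library 3 open), with the means of the other 4 branches of tree 13 (light blue ticks) and of tree 14 (light orange ticks). Genes are ordered by their change, with the 10 that were higher in 14.1 above the dotted line and the 12 that were lower below it, and in no gene do the libraries of the 2 branches overlap.

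PtStettler14.05G080600 (chromosome 5, 6429950 to 6430436, plus strand), of 487 bases, rose most. Its scaled TPM was 31.5, 18.6 and 28.0 in 13.4 and 93.2, 114.1 and 85.1 in 14.1. All libraries of 14.1 were above all libraries of 13.4, with means of 26.04 ± 6.69 and 97.5 ± 14.97 (SD, n = 3 each). The log2 change was 1.89 (SE 0.28, adjusted p = 0.00018 by limma), and 1.98 without 14.1 r3.

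PtStettler14.15G121100 (chromosome 15, 14588756 to 14590771, plus strand) was the most precisely separated of the larger rises. Its scaled TPM was 3.59, 4.34 and 4.32 in 13.4 and 13.7, 18.2 and 14.1 in 14.1, a log2 change of 1.68 (SE 0.10, adjusted p = 6.5e-10 by limma). The mean of 14.1 was 3.75 times that of 13.4. The other branches of tree 14 had means of 21.9 to 54.5, all above 14.1, and those of tree 13 had 2.03 to 4.20, with 13.4 among them.

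Over the 13 branches outside the pair, PtStettler14.05G080600 and the genes of 918 bases on chromosome 2 and of 147 bases on chromosome 5 followed nearly the same profile, with Pearson's r of 0.961 to 0.992 between their branch means. These points share libraries and scaling factors, and the grouping was made after the values were seen. The gene of 918 bases on chromosome 2 (3726452 to 3727369, minus strand) had a scaled TPM of 73.7, 74.7 and 80.4 in 13.4 and 206.7, 262.8 and 200.01 in 14.1. Its log2 change was 1.53 (SE 0.18, adjusted p = 1.2e-05 by limma). In tree 4 its branch means were higher still in 4 of 5 branches, at 387.8 to 575.9, and lower in 4.4, at 130.3. The gene of 147 bases on chromosome 5 (20089570 to 20089716, plus strand) was the most abundant gene to rise. It had 276.6, 253.6 and 310.4 in 13.4 and 556.4, 767.5 and 576.3 in 14.1, a log2 change of 1.16 (SE 0.18, adjusted p = 0.00025 by limma). In both genes 14.1 was above all of the other 8 branches of the stems.

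Among the other genes that rose, the gene of 1984 bases on chromosome 11 (17729680 to 17731663, minus strand) had 36.7, 39.5 and 43.6 in 13.4 and 93.1, 105.5 and 96.7 in 14.1. Its log2 change was 1.28 (SE 0.09, adjusted p = 2.2e-09 by limma). The branch nearest to 14.1 in level was 14.2, at 92.1, and the other 3 branches of tree 14 were at 52.2 to 72.6. The gene of 1180 bases on chromosome 1 followed the stems, with 1.33, 1.69 and 1.35 in 13.4 and 2.997, 5.32 and 5.89 in 14.1, beside 1.06 to 1.90 in the other branches of tree 13 and 2.76 to 4.58 in those of tree 14. The gene of 1077 bases on chromosome 2 was set apart by a low 13.4, with 38.4, 32.3 and 40.8 in 13.4, 72.3, 93.8 and 99.3 in 14.1, and 46.4 to 90.2 in the other 8 branches.

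The genes of 6267 bases on chromosome 12 and of 1389 bases on chromosome 3 rose although the mean of the other branches went the other way. The gene on chromosome 12 had 18.8, 20.6 and 21.8 in 13.4 and 49.1, 45.3 and 39.96 in 14.1. Its log2 change was 1.09 (SE 0.12, adjusted p = 1.1e-05 by limma), where the mean of the other branches changed by -0.50 from tree 13 to tree 14. That mean leans on 13.1, at 88.3, since 13.2, 13.3 and 13.5 were at 27.5 to 39.8 and the other branches of tree 14 at 20.8 to 40.4. This gene overlaps another annotated gene. The paper reports default settings for alignment and abundance, and the exceptions it lists do not name strand. The level of this gene may therefore hold reads of its neighbour. The gene on chromosome 3 had 3.33, 1.71 and 2.59 in 13.4 and 7.72, 10.9 and 4.10 in 14.1, with its lowest library of 14.1 being the shallow r3. Its log2 change of 1.22 (SE 0.25, adjusted p = 0.0037 by limma) became 1.55 without r3. The call was lost without 13.4 r2 or r3 or 14.1 r1 or r2, with adjusted p of 0.015 to 0.034 by limma and changes of 0.94 to 1.24.

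The gene of 1253 bases on chromosome 6 (1258117 to 1259369, minus strand) was near 0 in 13.4, at 0.0567, 0.122 and 0.0258, and at 1.81, 2.13 and 1.67 in 14.1. The other 8 branches of the stems had means of 1.40 to 2.47, so 13.4 was the branch of the stems that stood apart. At least 1 library of those 8 branches was nevertheless listed at 0. In tree 4, branches 4.1 and 4.5 were also low, at 0.129 and 0.221, and 4.2, 4.3 and 4.4 were at 1.04 to 1.38. The call of this gene (log2 change 1.42, SE 0.32, limma adjusted p = 0.0082) was lost when any 1 of the 6 libraries was left out (limma adjusted p = 0.021 to 0.035), with the change at 1.36 to 1.47.

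PtStettler14.01G069000 (chromosome 1, 6219039 to 6227175, minus strand) fell most. Its scaled TPM was 19.4, 9.34 and 15.3 in 13.4 and 1.56, 3.93 and 3.65 in 14.1, with means of 14.7 ± 5.08 and 3.05 ± 1.297 (SD, n = 3 each). The log2 change was -1.96 (SE 0.27, adjusted p = 8.4e-05 by limma). PtStettler14.03G154000 (chromosome 3, 19315554 to 19325590, plus strand) had 11.8, 7.54 and 8.45 in 13.4 and 1.94, 2.05 and 1.27 in 14.1, a log2 change of -1.89 (SE 0.27, adjusted p = 0.00014 by limma). Both genes varied widely within each stem. The first had branch means of 2.34 to 34.7 in the rest of tree 13 and 6.51 to 31.6 in the rest of tree 14, and the second had 1.65 to 19.3 and 2.31 to 17.2. In both, branch 13.1 was below 14.1 and every other branch of the stems was above it.

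A group of 5 genes that fell shared a profile in which branches 13.1 and 13.3 were also high. They lie on chromosomes 2, 6, 9, 16 and 18, span 485 to 1081 bases, and had Pearson's r of 0.939 to 0.992 with each other over the 13 branches outside the pair, a grouping again made after the values were seen. The gene of 1033 bases on chromosome 2 (98728 to 99760, plus strand) had 2.86, 3.05 and 5.01 in 13.4 and 0.314, 0.864 and 0.361 in 14.1, a log2 change of -1.61 (SE 0.22, adjusted p = 7e-05 by limma). Its branch means reached 44.8 in 13.1 and 10.2 in 13.3, but 0.425 in 13.5, and stayed at 0.419 to 1.28 in the rest of tree 14. Branch 13.4 was thus intermediate within its own stem. The gene of 1025 bases on chromosome 6 had 3.42, 3.10 and 2.76 in 13.4 and 0.672, 0.569 and 0.273 in 14.1, with 15.3 in 13.1, 9.78 in 13.3 and 0.625 in 13.5. In the genes of 597 bases on chromosome 18, 485 bases on chromosome 16 and 1081 bases on chromosome 9 the log2 changes were -1.51, -1.26 and -1.25. All 5 kept their calls without 14.1 r3, at log2 changes of -1.13 to -1.54.

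Another 3 genes that fell were low in tree 4, with branch means of at most 0.506 there. The gene of 1486 bases on chromosome 4 (16137374 to 16138859, minus strand) had 7.24, 7.76 and 7.35 in 13.4 and 1.55, 2.51 and 1.79 in 14.1, and no library of tree 4 exceeded 0.159. Its log2 change was -1.53 (SE 0.15, adjusted p = 1.7e-06 by limma), and it was the 1 called gene in which both branches lay outside the other 8, 13.4 above all of them and 14.1 below. The genes of 1023 bases on chromosome 1 and of 851 bases on chromosome 7 separated the stems as a whole. The first had 5.05, 5.41 and 5.73 in 13.4 and 1.21, 2.64 and 1.91 in 14.1, beside 4.91 to 6.34 in the other branches of tree 13 and 1.44 to 2.93 in those of tree 14. The second had 3.97, 3.93 and 3.65 in 13.4 and 0.945, 1.90 and 1.41 in 14.1, beside 3.004 to 4.68 and 1.16 to 1.68. Without 14.1 r1 the changes of these 2 genes were -0.98 and -0.87, under the minimum.

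The remaining 2 were the genes of 5489 bases on chromosome 3 and of 479 bases on chromosome 9. The gene on chromosome 3 (14907564 to 14913052, plus strand) was the most abundant gene to fall, with 26.2, 23.8 and 26.9 in 13.4 and 12.7, 11.8 and 10.6 in 14.1. Its log2 change was -1.07 (SE 0.11, adjusted p = 6.4e-06 by limma), and 14.1 was below the other 8 branches. The gene on chromosome 9 had 5.10, 5.34 and 5.25 in 13.4 and 1.53, 1.52 and 2.12 in 14.1. Its log2 change of -1.20 (SE 0.27) passed with all 6 libraries (limma adjusted p = 0.0086) and missed when any 1 of them was left out (limma adjusted p = 0.016 without 14.1 r3 and 0.029 to 0.034 without another), and it was the called gene nearest to the p threshold. The nearest gene outside had a log2 change of -1.02 at an adjusted p of 0.021. On the scale of change, the last gene inside had an absolute log2 change of 1.02 and the first outside 0.97.

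Most differences between the branches were small. The absolute log2 change was below 0.5 in 96.1% of tested genes, with a median of 0.11. At an adjusted p of at most 0.05 with no minimum change, 1263 genes differed (5.37%), 648 higher and 615 lower in 14.1, with a median absolute log2 change of 0.43. The count fell to 700, 728 and 772 when 13.4 r2, r3 or r1 was left out, and was 911 without 14.1 r3, while TPM as deposited gave 274, 8 higher and 266 lower. At an adjusted p of at most 0.01, 487 genes differed, and 465 of them changed by less than 1 on the log2 scale, 228 upward and 237 downward.

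Not every large change passed the test. Of 224 genes with an absolute log2 change of at least 1, 202 were not called, and 145 of these were members of the co-varying list. Without 14.1 r3, 105 genes changed by that much, with 3 of those 145 and 31 of the 57 others among them. With all 6 libraries the 57 others had a median SE of 0.81, against 0.18 in the called genes. The extreme case, a gene of 420 bases on chromosome 8, was listed at 0 in all 3 libraries of 13.4 and in 14.1 r1, at 400.7 in 14.1 r2 and at 12253 in 14.1 r3 (log2 change 7.41, SE 3.43, limma adjusted p = 0.24). The 3 libraries of 14.1 thus disagreed among themselves, and the change rests on 2 of them.

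The co-varying list is where 14.1 r3 weighed most. None of its 174 tested members was called in either direction, yet all 174 had a log2 change above 0, with a median of 1.35, where the median of all tested genes was -0.0022. Without 14.1 r3 the median was 0.21 and 162 of 174 were above 0. Leaving out any other library of the pair gave medians of 1.04 to 1.97. Of the 175 genes, 71 lie on chromosome 13, 34 on chromosome 7 and 24 on chromosome 11, and 45.7% span less than 500 bases, against 2.51% of all tested genes. The size of the list's rise in 14.1 thus rested mostly on 14.1 r3, while most members stayed slightly above 0 without it. The plot of change against level shows the list leaving the centre of the cloud with r3 and lying within it without r3.

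**Figure D2:**
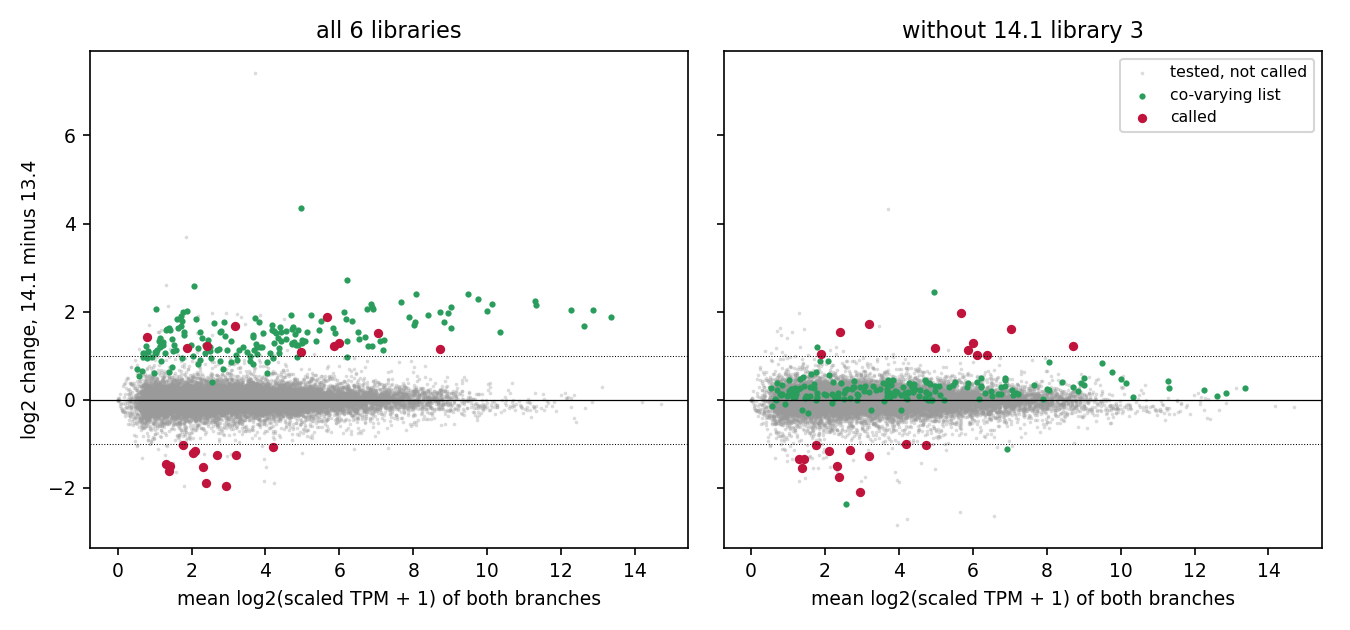
Log2 change, 14.1 minus 13.4, of each tested gene against its mean log2(scaled TPM + 1) over both branches, with all 6 libraries (left) and without 14.1 library 3 (right). Called genes are red, 22 on the left and 23 on the right, and the co-varying list is green, with a median change of 1.35 on the left and 0.21 on the right.

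The comparison so far used the spread between libraries of a branch. To ask whether the branches differed by more than branches of a stem differ from each other, the branch means were tested against the spread between the other branches of each stem. No gene passed an adjusted p of at most 0.05 (0% called, smallest adjusted p = 0.17 by limma), and 1170 genes had an unadjusted p under 0.05 where 5% of the tested genes is 1176. That count was 1271 to 1798 when 1 library of the pair was left out, the highest without 14.1 r1, and 4840 with TPM as deposited. Leaving out single libraries gave 0 to 4 called genes, and a pseudocount of 0.1 gave 1. Of the 22 genes, 11 had an unadjusted p under 0.05 in that test, and the smallest adjusted p among the 22 was 0.54. The 22 genes were chosen by the same change between the same branches, which favours small p-values here. The median SE of the 22 genes was 0.64 against branches and 0.18 against libraries.

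Most called genes had the sign of the mean difference between the stems. Over the other 8 branches, which share no library with the pair, 18 of the 22 genes had the sign of the pair's change in the mean of tree 14 minus the mean of tree 13 (81.8%), against 51.2% of all tested genes. Among the 23 genes called without 14.1 r3 the count was 17 (73.9%), and among the 487 genes at an adjusted p of at most 0.01 it was 356 (73.1%). A shared sign does not mean that the stems separate. In 8 of the 22 genes the other 4 branches of tree 13 did not overlap the other 4 of tree 14, which held for 15.9% of all tested genes. The falling genes that shared a profile high in 13.1 and 13.3 are among the 18. So are the rising genes with nearly the same profile, PtStettler14.05G080600 and the genes of 918 bases on chromosome 2 and 147 bases on chromosome 5. The falling genes of 1023 bases on chromosome 1 and 851 bases on chromosome 7, with Pearson's r of 0.962, are too. Signs within such a group are not separate observations. Also among the 18 is the gene of 1253 bases on chromosome 6, where the mean difference between the stems was 0.16. Branch 13.4 lay within the range of the other 8 branch means in 18 of the 22 genes and 14.1 in 15, and both did in 12. Over all tested genes both did in 76.1%. Branch 13.4 was above the other 8 in 1 called gene, beside 5.63% of all tested genes, and below them in 3, beside 6.07%. Those 3 were the genes of 1253 bases on chromosome 6, 1077 on chromosome 2 and 6267 on chromosome 12. Branch 14.1 was above the other 8 in 4 called genes, beside 7.32% of all tested genes, and below them in 3, beside 8%.

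A direct test of the pair's change against that of the other branches, in the same model, called 157 genes (0.668%), of which 75 were higher and 82 lower than the other branches gave. Of the 22 called genes, 6 were among these, beside 0.668% of all tested genes. Both tests hold the pair's own change, which favours an overlap. In 83 of the 157 the pair itself differed by less than 0.5 on the log2 scale, and in 50 the other branches of the stems differed by at least 1. The median absolute change was 0.48 in the pair and 0.79 over the other branches. In all 157, 14.1 was shifted from the mean of its stem in the direction of the difference and 13.4 from its stem in the other, which the choice of genes favours, and the shift was larger in 14.1 in 138 of them. The median absolute shift in these genes was 0.76 for 14.1 and 0.47 for 13.4, and over all tested genes it was 0.11 and 0.077. In 144 of the 157 genes both branches were within the range of the other 8 branch means. Without 14.1 r3, 181 genes passed. As this test uses the spread between libraries, it does not say that the pair differs from other pairs by more than branches do.

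**Figure D3:**
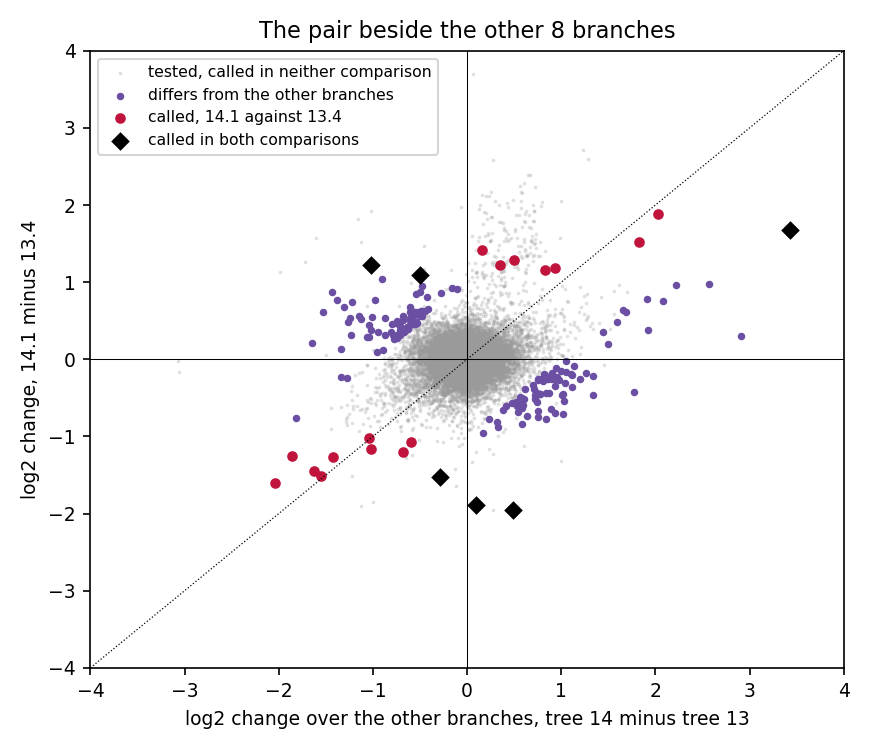
Log2 change of each tested gene in the pair (14.1 minus 13.4) against that over the other branches (mean of 14.2, 14.3, 14.4 and 14.5 minus mean of 13.1, 13.2, 13.3 and 13.5). Called genes are red, or black diamonds where both comparisons passed, and the other genes that differ from the other branches are purple. The colours follow the test of the difference, so they largely set how far a gene lies from the dotted line of equal change. Purple genes lie mostly near the horizontal axis or across it, and 2 genes fall outside the axes.

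Outside the 22 called genes, PtStettler14.14G101600 and PtStettler14.17G014600 lay furthest below the change of the other branches. PtStettler14.14G101600 had 13.9, 15.7 and 17.1 in 13.4 and 16.0, 22.8 and 19.96 in 14.1, where libraries of the 2 branches overlap. The means of the other branches were 1.81 to 14.05 in tree 13 and 24.3 to 81.2 in tree 14, so 13.4 was above its stem and 14.1 below its own. The difference between the changes was -2.61 (SE 0.18, adjusted p = 2.5e-09 by limma). PtStettler14.17G014600 had 4.24, 5.44 and 4.13 in 13.4 and 2.91, 3.11 and 3.48 in 14.1, with 0.407 to 3.59 in the rest of tree 13 and 2.85 to 15.4 in the rest of tree 14, and a difference of -2.20 (SE 0.16, adjusted p = 3.9e-09 by limma).

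PtStettler14.11G122800 and PtStettler14.19G048700 lay furthest above it, again outside the 22 called genes. PtStettler14.11G122800 (chromosome 11, 16960185 to 16961346, minus strand) had 81.2, 66.3 and 87.2 in 13.4 and 135.4, 170.4 and 128.9 in 14.1. The branches 14.3, 14.4 and 14.5 were at 26.7 to 39.5, and 14.2, at 117.7, was the branch of its stem near 14.1. The difference was 2.31 (SE 0.17, adjusted p = 4.5e-09 by limma). PtStettler14.19G048700 (chromosome 19, 8234966 to 8236880, plus strand) had 287.15, 223.6 and 221.6 in 13.4 and 362.1, 364.1 and 538.8 in 14.1, with the highest value in the shallow r3. Its difference was 2.15 (SE 0.22, adjusted p = 4.4e-07 by limma). The other branches of tree 13 were at 437.6 to 1065, all above 13.4. In tree 14, branch 14.2 was at 434.0, near 14.1, and 14.3, 14.4 and 14.5 were at 136.9 to 230.6. The log2 change of the pair itself was 0.77, and 0.58 without 14.1 r3.

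Among the 45 pairs of the 10 branches of trees 13 and 14, which share branches and so are not independent, the pair had few called genes for branches on different stems. Its 22 were the fewest of the 25 pairs between stems, where the others had 28 to 990, and it remained the lowest without 14.1 r3. The next was 13.4 with 14.2. At an adjusted p of at most 0.05 with no minimum change, the pair was not the lowest. It had 1263 genes, against 1082 for 13.2 with 14.1, 1175 for 13.5 with 14.1 and 1232 for 13.4 with 14.2. Without 14.1 r3 it had 911, against 833 for 13.2 with 14.1 and 782 for 13.5 with 14.1. Measured as 1 minus Pearson's r between branch means, the distance of the pair was 0.0093, which ranked 9 of the 25, and 0.0077 without 14.1 r3, which ranked 3. Without the co-varying genes it was 0.0071 and also ranked 3. The rank moved the other way without 14.1 r1 (0.013, rank 14) and without 14.1 r2 (0.013, rank 13), and it was 9 or 10 without a library of 13.4, so the distance did not place the pair firmly among the nearest. Each branch was nearer to a branch of its own stem, 13.4 to 13.5 at 0.0045 and 14.1 to 14.2 at 0.0040. By called genes, 14.1 had none against 14.2 (1088 genes at an unadjusted p under 0.05 by limma), 45 against 14.3, 116 against 14.5 and 142 against 14.4. Branch 13.4 had 5 against 13.2, 9 against 13.3, 16 against 13.5 and 278 against 13.1.

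**Figure D4:**
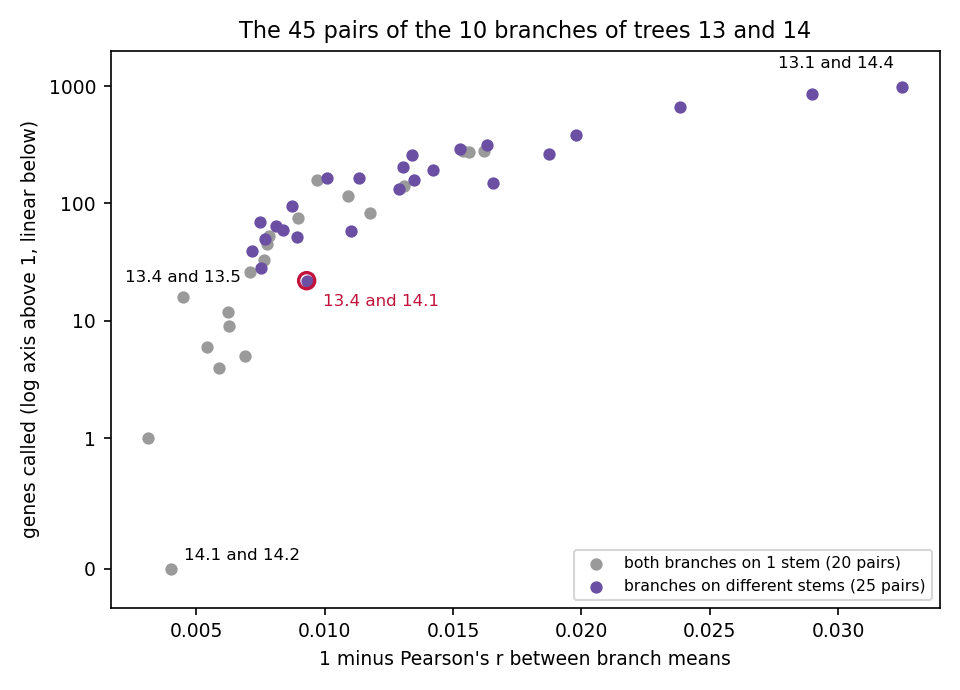
Genes called against 1 minus Pearson's r between branch means for the 45 pairs of the 10 branches, with pairs on 1 stem in grey and pairs between stems in purple. The pair of 13.4 and 14.1 (red ring) has 22 called genes at a distance of 0.0093, below every other pair between stems in called genes, and 14.1 with 14.2 has none.

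Between single libraries the distances show which of them set the pair apart. Within 13.4 the distances were 0.0084 to 0.0099, and 14.1 r1 and r2 were 0.012 apart. The distances of those 2 libraries of 14.1 to the 3 of 13.4 were 0.013 to 0.015, only slightly more. Library 14.1 r3 was 0.030 to 0.039 from the libraries of 13.4 and 0.029 and 0.032 from its own branch. The closest library to 13.4 r3 was 13.3 r1, and the closest to 14.1 r1, r2 and r3 were libraries of 14.2, 14.2 and 14.3.

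The first axis of variation among the other 8 branch means, which held 55.3% of their variance, ran from 13.1 at -39.5 to 14.4 at 31.7 and separated the stems apart from 13.3 and 14.2, at -2.0 and -0.9. Branch 13.4 projected at -8.2 and 14.1 at -4.6, or -7.1 without r3, so the pair lay at nearly the same place on the axis along which the other branches differ most. A branch that did not help to set an axis tends to project nearer to 0, so the positions of these 2 branches are best read against each other. On the second axis, with 14.6% of the variance, 13.4 was at -13.6 toward 13.5 at -22.9, and 14.1 was at 2.6, or -2.2 without r3, beside 14.2 at 0.5. On both axes 14.1 r3 lay outside the range of the other 2 libraries of 14.1.

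**Figure D5:**
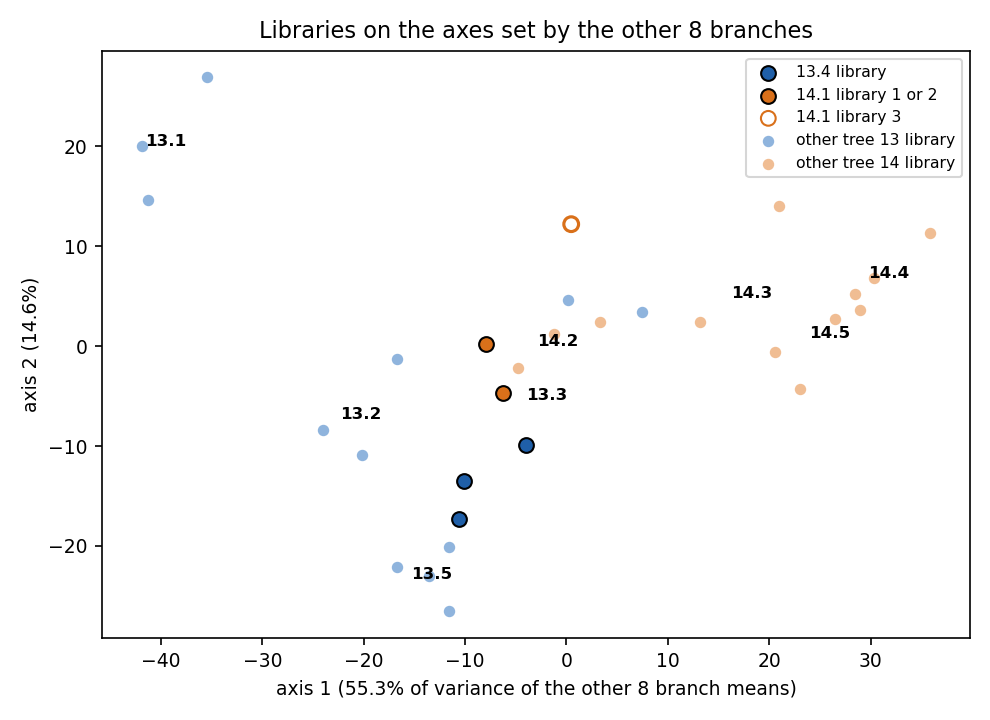
Positions of the 30 libraries of trees 13 and 14 on the first and second axes of variation of the other 8 branch means (sums of weighted log2 differences, with no unit), with branch names at the branch means. The libraries of 13.4 (dark blue) are at -4.0 to -10.6 on the first axis and those of 14.1 (dark orange) at -6.3 and -7.9, with the shallow library 3 (open) at 0.5.

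The called genes were spread over the genome. They lay on 13 of the 19 chromosomes with at most 3 on any of them, and no 2 neighbouring tested genes were called in the same direction. The median log2 change of the genes on a chromosome was between -0.016 and 0.016. The 16 tested genes on scaffolds outside the chromosomes had a median of 1.07, or 0.083 without 14.1 r3, and 13 of the co-varying genes lie on 1 of those scaffolds. Of 589 tested genes that span less than 500 bases, 2 rose and 2 fell (0.679%), and of 1115 that span more than 10000 bases, none rose and 1 fell (0.0897%), beside 0.0936% of all tested genes. The called genes had a median span of 1079 bases, where all tested genes had 3488.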

How the data were processed

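Leaf RNA of each branch was made into stranded mRNA libraries. The authors trimmed reads with Trimmomatic 0.36, aligned them to the Stettler genome with HISAT2 2.1.0 and estimated abundance with StringTie 1.3.4d limited to reference transcripts. The deposited TPM and FPKM columns are these estimates, and no counts were used. TPM sums to a fixed total in each library, so a few abundant genes lower all others. It was therefore scaled by median-of-ratios factors over 25014 genes. Scaling left a median log2 change of -0.0022 between the branches, and TPM as deposited gave -0.27. Depth was estimated from the steps of FPKM in genes where 1 fragment sets the smallest value.

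A gene was tested where 3 or more of the 30 libraries of trees 13 and 14 reached 1 TPM (23512 of 34700), using limma 3.58.1 (R 4.3.3) on log2(scaled TPM + 1), with a mean-variance trend and branch as the factor. The pseudocount makes log2 changes of low genes smaller than their ratios. P-values were adjusted by the Benjamini-Hochberg method over all tested genes. Called genes changed by 1 or more on the log2 scale at an adjusted p of 0.01 or less, the thresholds of the study's own count-based test. The code was tested on simulated data. The members, lists and tests were chosen with earlier results of these data known. Named genes are the 8 largest changes in each direction among genes called with and without 14.1 r3, those called only with it, the 2 largest in each direction against the other branches among genes not already named, and the most abundant called gene in each direction, and the other called genes were described after their values were seen. At most 2 identifiers in each direction are printed for a comparison. Alternatives were other pseudocounts, filters, scalings, models and left-out libraries.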

Additional observations from a re-analysis of the deposited data

Results flagged for a closer look

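The change from 13.4 to 14.1 differed from that between the other branches of the stems in 157 genes, by the test of the difference itself in the limma fit. Of the 22 genes called between the branches, 6 were among them, beside 0.668% of all tested genes. Both tests hold the pair's own change. PtStettler14.01G069000 and PtStettler14.03G154000 lay -2.45 and -1.99 below the change of the other branches on the log2 scale. The gene of 1486 bases on chromosome 4 lay at -1.24, and PtStettler14.15G121100 at -1.75, since it rose less in the pair than between the other branches. The genes of 6267 bases on chromosome 12 and 1389 bases on chromosome 3 lay 1.59 and 2.24 above it. Outside the 22 genes, PtStettler14.14G101600 and PtStettler14.17G014600 lay at -2.61 and -2.20, and PtStettler14.11G122800 and PtStettler14.19G048700 at 2.31 and 2.15. In these 26 genes, 52 groups of 5 branch means were examined on the log2 scale, at a level that about 1 in 20 passes by chance. No mean of 13.4 or 14.1 was set apart from the other 4 branches of its stem by Dixon's test at the 95% level. On the scale of scaled TPM, the mean of 13.4 was just past the limit in the gene of 1253 bases on chromosome 6. Its gap was 0.72 of the range, where the limit is 0.71 and the log2 scale gave 0.69. With so many groups examined, and a gene chosen for its difference between the branches, this does not show that 13.4 stands apart.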

How the results depend on the processing

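The count of 22 called genes moved by more than 1.5 times under the pseudocounts (51 at 0.1 and 8 at 5), a mean of at least 5 TPM (13), TPM as deposited (43), the 6 libraries alone (10, all of them among the 22, and 8 without 14.1 r3) and an adjusted p of at most 0.05 with no minimum change (1263). TPM as deposited also moved the split from 10 higher and 12 lower to 1 higher and 42 lower. The 157 genes that differed from the other branches became 297 and 63 under the pseudocounts, and 170 with TPM as deposited, 20 higher and 150 lower. Against the spread between branches, 1 gene passed with a pseudocount of 0.1. Leaving out 1 library at a time gave 19 to 25 called genes, 147 to 181 differing genes and 0 to 4 genes against the spread between branches, the 4 without 14.1 r2. The samples share only a replicate number: the deviations of same-numbered libraries correlated at -0.06, -0.19 and -0.30, no library correlated best with its own number, and with a replicate block 21 genes were called and 158 differed from the other branches. No direction of the named genes turned in 473 alternative values of the 22 called genes and 80 of the 4 others, and 81 of the 473 missed a threshold. Low depth may limit low genes in 14.1 r3, which was not tested, and neither were the causes of these moves.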

Other observations

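Leaving out 14.1 r3 brought 3 genes past the threshold on change. They were already separated in all 6 libraries. The gene of 1542 bases on chromosome 5 had a scaled TPM of 66.6, 54.7 and 58.3 in 13.4 and 108.8, 134.8 and 104.7 in 14.1, and its log2 change went from 0.94 to 1.01. The gene of 5320 bases on chromosome 9 had 48.2, 51.3 and 48.0 in 13.4 and 102.0, 100.03 and 85.4 in 14.1, and went from 0.94 to 1.02. The gene of 534 bases on chromosome 11 had 31.8, 37.7 and 37.2 in 13.4 and 12.5, 22.6 and 21.4 in 14.1, and went from -0.92 to -1.03.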
